A study of Mus musculus with 2 samples.

Results

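Imprinted genes are expressed from only 1 of the parental alleles, some of them in certain tissues only. A group of them controls growth before and after birth. The genes described here are *H19*, *Igf2*, *Meg3*, *Dlk1*, *Mest*, *Peg3*, *Cdkn1c*, *Plagl1*, *Grb10* and *Ndn*. They were taken by gene symbol from the deposited gene tables, where they make up 10 of 24532 genes, and all 10 had reads in both libraries.

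The data come from C57BL/6 (C57BL/6J in the methods of the study) mouse cardiac myofibroblasts, the collagen-producing cells of the injured heart, isolated 3 days after myocardial infarction (MI) of adult male mice as the CD45-negative fraction of cells that attached to plastic. Both groups were cultured in DMEM that held 10% FBS and were transfected with siRNA with Lipofectamine RNAiMAX: the siCtrl group 12.5 nM of a control siRNA (siControl), and the si*Vgll3* group 12.5 nM of an siRNA against *Vgll3*, a transcription cofactor that binds TEAD proteins. mRNA was sequenced after 72 h, with 1 library per condition. No difference below thus has a replicate check in these data, and no test of the conditions was possible. The study separately reported lower *Col1a1*, *Col1a2* and *Postn* mRNA by qRT-PCR in replicate cardiac myofibroblasts given si*Vgll3*. How many mice or cultures went into each library is not given in the sources used here.

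In an imprinted cluster, a control region methylated on 1 parental chromosome sets which genes of the neighbourhood are transcribed from that chromosome. As a rule of thumb, paternally expressed members such as *Igf2* promote growth, while maternally expressed members such as *Cdkn1c* and *Grb10* restrain it. Many are highly expressed in the fetus and become low in most organs after birth. Because both parental alleles of an inbred strain carry the same sequence, these libraries measure the total RNA of each gene and not the allele it came from.

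Genes received 140815237 reads from the siCtrl library and 125789276 from the si*Vgll3* library. Levels are given as read counts and as TPM, the abundance of a transcript scaled for its length and for library size. M is the log2 ratio of TPM in si*Vgll3* over siCtrl, and A is the log2 of the mean TPM of both. The interval beside each M is a 95% Clopper-Pearson interval of the read counts, which covers counting error only and compares the libraries rather than the conditions. Genes at A > 0 with M below −0.5, the study's own limit for lower genes, are called lower here, and those with M above 0.5 are called higher. The study does not spell out how it computed A, and its count of lower genes differs from the 1341 found here. The targeted gene *Vgll3* had 42925 siCtrl reads and 16524 si*Vgll3* reads, which is 202 and 84.0 TPM, so that 41.6% of its level was left (M = −1.27, interval −1.29 to −1.24).

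Among the imprinted growth-control genes, *H19* and *Mest* were lower in si*Vgll3*, *Cdkn1c* was higher, and 6 genes had M within the limits. *Dlk1* had a low M too, but it lay under the limit on A. In bulk libraries, fewer cells that express a gene and less of its RNA per cell cannot be told apart. Of the 9 genes at A > 0, 2 were thus lower and 1 was higher. Over all 11754 genes at A > 0, 11.4% were lower and 5.73% were higher by the same limits. The median M of the 9 genes was −0.12, against −0.05 over all genes. Both counts are of a handful of genes, and the share of lower or higher genes among them is not called different from that of all genes.

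**Figure D1:**
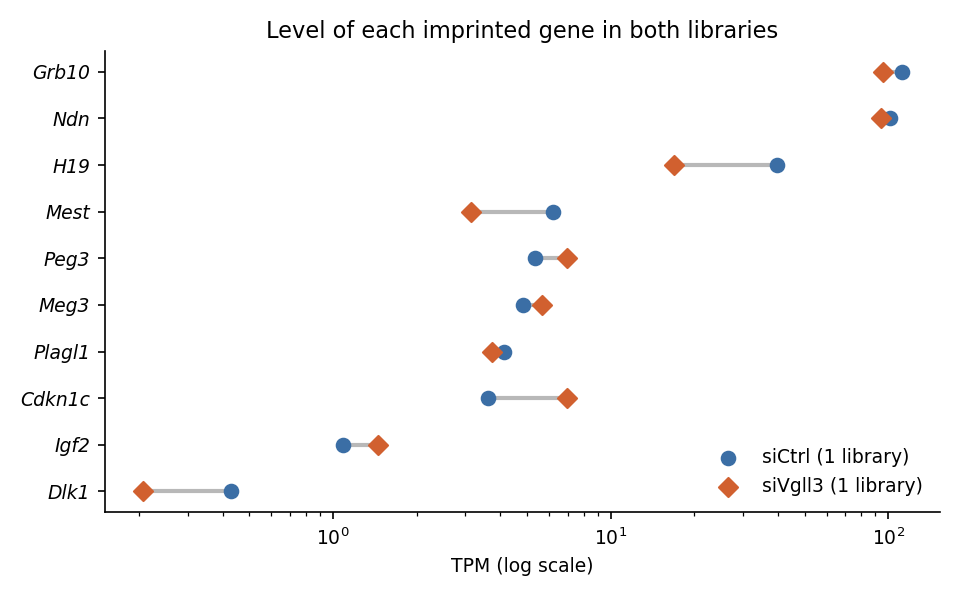
TPM of each of the 10 imprinted growth-control genes on a log axis, with a circle for the siCtrl library and a diamond for the siVgll3 library. Grb10 and Ndn lie near 100 TPM in both libraries, H19 lies at 39.9 TPM in siCtrl and at 16.9 TPM in siVgll3, and Dlk1 lies below 1 TPM in both.

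The members covered a wide range of levels. In siCtrl the order was *Grb10*, *Ndn*, *H19*, *Mest*, *Peg3*, *Meg3*, *Plagl1*, *Cdkn1c*, *Igf2* and *Dlk1*, from 112 TPM down to 0.427 TPM. The ratio of each gene to the next one down was above 1 by its counting interval at each step. In si*Vgll3* the top 3 and the bottom pair of genes held their places, *Mest* moved from rank 4 to rank 8, and *Cdkn1c* moved from rank 8 to rank 5. There, *Peg3* and *Cdkn1c* could not be told apart, with a TPM ratio of 1.00 (interval 0.926 to 1.09). *Grb10* and *Ndn* were close to each other in both libraries, at a ratio of 1.10 (1.08 to 1.13) in siCtrl and 1.02 (1.00 to 1.05) in si*Vgll3*. The 10 genes summed to 279 TPM in siCtrl against 235 TPM in si*Vgll3*, and *Grb10*, *Ndn* and *H19* made up 90.8% and 88.0% of these sums. This order rests on the gene lengths behind TPM. With reads per kb of all annotated exons in place of TPM, 5 of the 10 genes kept their rank in siCtrl and 4 in si*Vgll3*. By reads per kb, *Cdkn1c* at 216 was already above *Plagl1* at 178 and *Peg3* at 170 in siCtrl. *Meg3* was below *Igf2* in both libraries, at 43.5 against 49.1 in siCtrl and 53.7 against 55.6 in si*Vgll3*. The move of *Cdkn1c* and the bottom pair given above thus depend on the lengths used.

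*H19* and *Igf2* are neighbours on chromosome 7 that share enhancers. *H19* is a long noncoding RNA of the maternal chromosome, and *Igf2* encodes insulin-like growth factor 2, a fetal growth factor made from the paternal one. *H19* lies at chr7:142575529-142578143 on the minus strand and *Igf2* at chr7:142650766-142666816 on the minus strand (GRCm38, GENCODE vM21). *H19* (NCBI gene 14955) had 5830 siCtrl reads and 2287 si*Vgll3* reads, or 39.9 and 16.9 TPM. Its level was thus 2.36-fold higher in siCtrl, and 42.4% of it was left in si*Vgll3* (M = −1.24, interval −1.31 to −1.17). This M lies at percentile 2.04 of all genes at A > 0. *Igf2* (NCBI gene 16002) differed in the other direction and was far lower in level, with 281 siCtrl reads and 318 si*Vgll3* reads, or 1.09 and 1.45 TPM. Its M of 0.42 had an interval of 0.18 to 0.65, which spans the limit of 0.5, so at this depth it cannot be placed on either side, and with 1 TPM added its M was 0.23. TPM of *H19* per TPM of *Igf2* was 36.7 in siCtrl and 11.7 in si*Vgll3*, and these ratios rest on the gene lengths behind TPM.

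Both genes hold microRNAs, whose mature forms are shown because they are the known small products of these transcripts. The mRNA libraries do not measure mature microRNAs. *Mir675* lies within an exon of *H19*, and *Mir483* lies within *Igf2* outside its annotated exons. The mature sequences (RefSeq, GRCm38.p6) are written 5′ to 3′ with the seed, bases 2 to 8, in capitals.
mmu-miR-675-5p, chr7:142577112-142577133, minus strand: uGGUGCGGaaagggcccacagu
mmu-miR-675-3p, chr7:142577078-142577099, minus strand: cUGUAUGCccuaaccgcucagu
mmu-miR-483-5p, chr7:142654968-142654989, minus strand: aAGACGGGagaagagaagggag
mmu-miR-483-3p, chr7:142654932-142654952, minus strand: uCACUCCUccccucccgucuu
In the count table the *Mir675* hairpin had 1 read in each library and *Mir483* had 0, which allows up to 3 reads. The antisense RNA *Igf2os*, which overlaps *Igf2* over 7137 bases, also had 0 reads in both libraries.

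*Mest* (NCBI gene 17294, chr6:30723547-30748465, plus strand), also called *Peg1*, encodes a hydrolase-like membrane protein of mesodermal tissue and is expressed from the paternal allele. It had 1007 siCtrl reads and 475 si*Vgll3* reads, or 6.21 and 3.13 TPM. The level in si*Vgll3* was 50.5% of that in siCtrl, with M = −0.99 (interval −1.15 to −0.83). With 1 TPM added to both libraries, which damps low genes, M was −0.80. Its end overlaps the end of *Copg2*, a coat protein gene on the other strand, over 913 bases. *Copg2* had 20.6 TPM in siCtrl against 20.3 TPM in si*Vgll3* (M = −0.02), so the neighbour with the shared bases differed by far less than *Mest*. The strand setting of the counting is not given in the sources used here, and the library kit marks strand.

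*Mest* is also the host of *Mir335*, which had 0 reads in both libraries, and of the members with an annotated 3′ UTR it is the one with a match to the seed of miR-29, the microRNA family of the study. The match, the 7 letters TGGTGCT, was searched on the transcript's own strand in the 3′ UTR of the transcript with the longest coding sequence of each gene. It was present in *Mest* and absent from the 7 other coding members, while 2406 of 19733 genes, or 12.2%, held it. This 1 of 8 members is near the share of all genes and is not read as a trait of the members. The 3′ UTR of *Mest* has 1296 bases, against a median of 835 over all genes, and the match begins at base 1131 of it (chr6:30748300-30748306). The mature microRNAs of *Mest* and miR-29b are shown with the seed in capitals, and the site (chr6:30748290-30748316, plus strand) with the matching letters in capitals.
mmu-miR-335-5p, chr6:30741314-30741336, plus strand: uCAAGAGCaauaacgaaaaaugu
mmu-miR-335-3p, chr6:30741354-30741375, plus strand: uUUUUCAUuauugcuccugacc
mmu-miR-29b-3p: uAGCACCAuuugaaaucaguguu
*Mest* 3′ UTR site: taagagcaaaTGGTGCTgaatactttt
The 3′ UTRs without a match ranged from 688 bases in *Cdkn1c* to 3614 bases in *Peg3*. A match in letters describes the sequence and was not tested as a binding site.

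*Dlk1* and *Meg3* belong to 1 imprinted cluster on chromosome 12. *Dlk1* encodes a transmembrane protein related to the Notch ligands that holds back adipocyte differentiation, and *Meg3* is a maternally expressed long noncoding RNA. *Dlk1* (NCBI gene 13386, chr12:109452823-109463336, plus strand) was the lowest of the members, with 121 siCtrl reads and 53 si*Vgll3* reads, or 0.427 and 0.206 TPM. The ratio corresponds to 48.3% of the siCtrl level (M = −1.05, interval −1.54 to −0.57). With 1 TPM added, however, its M was only −0.24, since both levels are below 1 TPM. *Meg3* (NCBI gene 17263, chr12:109541001-109571726, plus strand) had 786 siCtrl reads and 972 si*Vgll3* reads, or 4.84 and 5.65 TPM (M = 0.22, interval 0.09 to 0.36). For *Meg3* the choice of unit mattered more than for the other members. From CPM, the read counts scaled to the library total alone, its M was 0.47, and the gap of −0.25 between its M by TPM and by counts compares with a median gap of −0.05 over all genes. TPM of *Meg3* per TPM of *Dlk1* was 11.3 in siCtrl and 27.4 in si*Vgll3*.

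**Figure D2:**
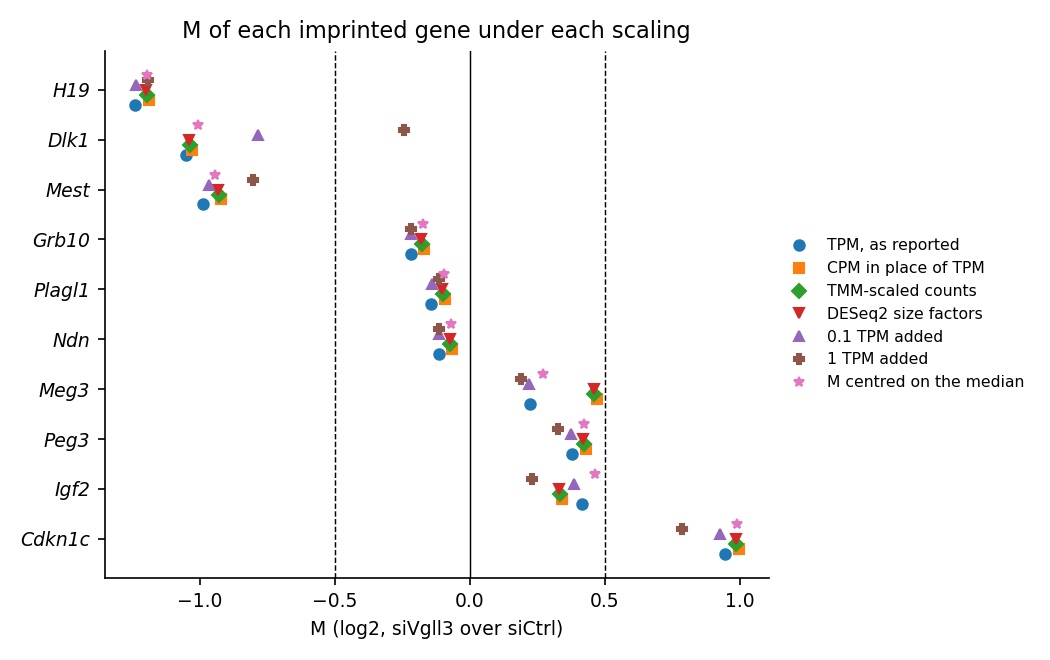
M of each member (log2 of siVgll3 over siCtrl) under the 7 ways of scaling the values, with 1 marker shape for each way and dashed lines at the limits of −0.5 and 0.5. No member changes sign, Meg3 moves from 0.22 by TPM to 0.47 by CPM, and Dlk1 moves from −1.05 to −0.24 with 1 TPM added.

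The other transcripts of the *Dlk1* cluster differed in both directions as well. *Rian*, a maternal noncoding RNA that hosts small nucleolar RNAs, was the most abundant, at 66.0 TPM in siCtrl against 92.5 TPM in si*Vgll3* (M = 0.49, interval 0.46 to 0.52). It is just under the limit by TPM and past it by CPM (M = 0.54) and once the median M of all genes is subtracted (M = 0.53). *Mirg*, the noncoding RNA of the microRNA block farther along, had M = 0.35 (interval 0.09 to 0.61). *Dio3*, the paternally expressed enzyme that inactivates thyroid hormone, was lower, at 10.3 TPM in siCtrl against 5.73 TPM in si*Vgll3* (M = −0.85, interval −0.99 to −0.71). All 3 maternal noncoding RNAs measured in the cluster thus had M above 0, while the paternal coding genes *Dlk1* and *Dio3* had M below 0. *Rtl1*, whose annotated span overlaps *Meg3* over 6830 bases, had 0 siCtrl reads and 2 si*Vgll3* reads. The microRNAs within exons of *Meg3* are given with their seeds in capitals.
mmu-miR-1906, chr12:109544588-109544609, plus strand: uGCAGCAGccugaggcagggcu
mmu-miR-770-5p, chr12:109563710-109563731, plus strand: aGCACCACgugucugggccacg
mmu-miR-770-3p, chr12:109563744-109563765, plus strand: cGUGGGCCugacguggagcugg
The 9 mature microRNAs of the 4 host genes have 9 different seeds, so they form no shared seed group. Their hairpins had at most 1 read in either library.

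**Figure D3:**
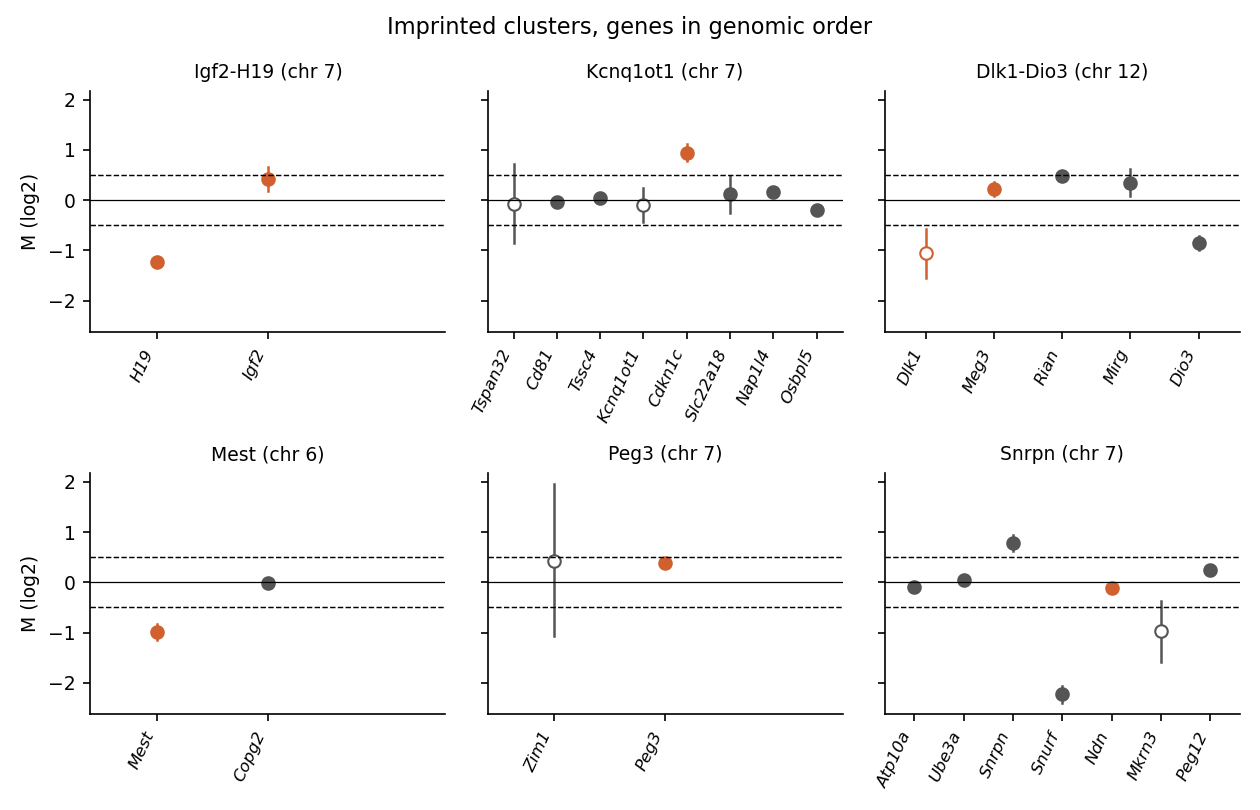
M (log2) of the genes of 6 imprinted clusters in genomic order, with the members in orange, other genes in grey, open circles for genes that fail the limit on A and bars for the 95% counting interval. Cdkn1c at 0.94 stands above the other genes of its panel, which lie between −0.19 and 0.17, and in the Dlk1-Dio3 cluster the noncoding RNAs lie above 0 and the coding genes below.

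Between *Cdkn1c* and *Grb10*, the members named above as restraining growth, *Cdkn1c* differed more. It encodes p57, a cyclin-dependent kinase inhibitor of the maternal allele that stops the cell cycle. *Cdkn1c* (NCBI gene 12577, chr7:143458339-143461050, minus strand) had 441 siCtrl reads and 785 si*Vgll3* reads, or 3.61 and 6.95 TPM. This is 1.92-fold higher in si*Vgll3* (M = 0.94, interval 0.77 to 1.12), at percentile 98.0 of all genes at A > 0. Its neighbours at A > 0 differed less, as *Cd81*, *Tssc4*, *Slc22a18*, *Nap1l4* and *Osbpl5* had M between −0.19 and 0.17. In the same cluster, however, *Phlda2* had 0 reads in siCtrl but 13 in si*Vgll3*, and *Kcnq1* had 0 and 12 reads. Neither has a TPM value or an M, and against a floor of 3 reads they were 4.85-fold and 4.48-fold higher in si*Vgll3* by CPM. These values leave out the counting error of the 13 and 12 reads. Over all genes, 284 had at least 10 reads in si*Vgll3* and 0 in siCtrl, and 223 the reverse. The paternal noncoding RNA *Kcnq1ot1*, whose transcription silences the cluster on the paternal chromosome, had 154 siCtrl reads and 133 si*Vgll3* reads. These are 0.0288 and 0.0270 TPM, far under the limit on A (M = −0.09, interval −0.44 to 0.25). Even so, *Cdkn1c* remained the rarest of the 3 inhibitors of its family. *Cdkn1a* (p21) had 272 TPM in siCtrl against 347 TPM in si*Vgll3* (M = 0.35), which was 75.4 and 49.9 times the TPM of *Cdkn1c*. *Cdkn1b* (p27) had 59.2 TPM in siCtrl against 56.1 TPM in si*Vgll3* (M = −0.08).

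*Grb10* is an adaptor protein that dampens insulin and IGF receptor signalling, maternally expressed in most tissues and paternally in neurons. *Grb10* (NCBI gene 14783, chr11:11930508-12038683, minus strand) was the most abundant of the 10 genes, with 36369 siCtrl reads and 28907 si*Vgll3* reads, or 112 and 96.2 TPM. Its M of −0.22 (interval −0.24 to −0.20) was −0.17 by CPM and −0.17 less the median M of all genes. Both values are outside that interval, which does not cover the choice of scaling. The difference is small but outside counting error, and whether it exceeds the spread between cultures cannot be known from 1 library per condition. The same holds for *Ndn*, which encodes necdin, a growth-suppressing protein that binds E2F1 and is paternally expressed. *Ndn* (NCBI gene 17984, chr7:62346569-62350262, plus strand) had 10717 siCtrl reads and 9158 si*Vgll3* reads, or 102 and 93.9 TPM (M = −0.12, interval −0.16 to −0.07). By CPM its M was −0.06, and less the median M of all genes it was −0.07.

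*Peg3* and *Plagl1* encode paternally expressed zinc finger proteins. PEG3 is known from maternal behaviour and cell survival studies, and PLAGL1, also called ZAC1, is a transcription factor that arrests growth and regulates other imprinted genes. *Peg3* (NCBI gene 18616, chr7:6703892-6730431, minus strand) had 2266 siCtrl reads and 2727 si*Vgll3* reads, or 5.36 and 6.97 TPM (M = 0.38, interval 0.30 to 0.46). *Plagl1* (NCBI gene 22634, chr10:13060504-13131694, plus strand) had 1390 siCtrl reads and 1166 si*Vgll3* reads, or 4.14 and 3.75 TPM (M = −0.14, interval −0.26 to −0.03). Both stayed within the limits. Transcripts annotated within them were all but absent: *Peg3os* had 7 and 3 reads and *Hymai* had 1 and 2 reads in siCtrl and si*Vgll3*.

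**Figure D4:**
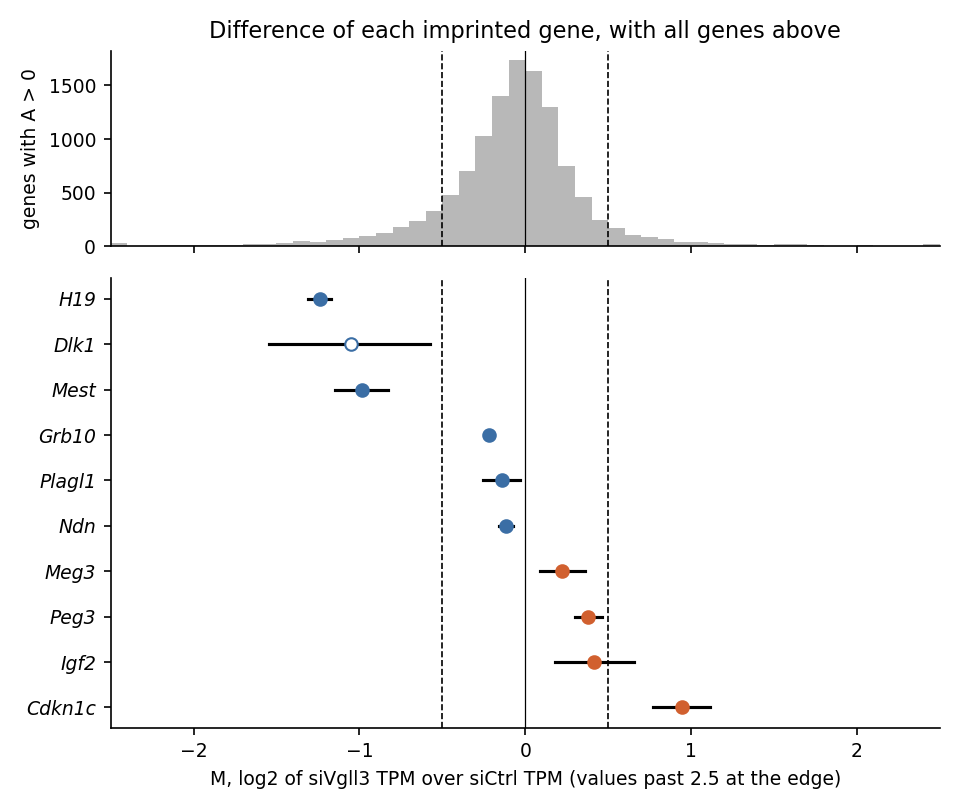
M of each member (log2 of siVgll3 TPM over siCtrl TPM) with its 95% counting interval, below a histogram of M over the 11754 genes at A > 0, with dashed lines at −0.5 and 0.5 and an open circle for Dlk1, which fails the limit on A. H19, Dlk1 and Mest lie left of the lower limit with their whole intervals and Cdkn1c lies right of the upper limit.

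The parent of origin did not divide the members by direction. Of the 4 genes that are maternally expressed as a rule, *H19* and *Grb10* had M below 0 and *Meg3* and *Cdkn1c* above 0, from −1.24 to 0.94. Of the 6 paternally expressed genes, *Dlk1*, *Mest*, *Plagl1* and *Ndn* had M below 0 and *Igf2* and *Peg3* above 0, from −1.05 to 0.42.

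Promoters of the members were searched for 2 sets of letters, since VGLL3 binds TEAD proteins and PLAGL1 is itself a member. In the study, siRNA against *Tead1* did not affect fibrotic genes in these cells. The RefSeq windows run from 250 bases before to 50 bases after each start (GRCm38.p6) and hold 15 starts of 8 members, with *H19* and *Cdkn1c* unmatched. GGAATG, the core of the TEAD motif, was found on either strand in 4 of the 15 windows and in 4817 of all 32851 windows (14.7%). The windows are not separate genes, and neighbouring *Mest* windows overlap, so these shares are not compared. GGGGCCCC, a palindrome bound by PLAGL1, was found in 1 of the 15 and in 354 of all windows (1.08%). The matches lie in 3 of the *Igf2* windows and in the *Peg3* window, genes with M of 0.42 and 0.38, and the windows of *Mest*, *Dlk1*, *Meg3*, *Ndn*, *Plagl1* and *Grb10* had neither set of letters. The *Peg3* window is shown because it holds both, and 1 *Igf2* window because it holds 2 TEAD matches, with the matching letters in capitals on the strand of the gene (CATTCC is GGAATG read on the other strand).
*Peg3*, chr7:6730370-6730669, minus strand: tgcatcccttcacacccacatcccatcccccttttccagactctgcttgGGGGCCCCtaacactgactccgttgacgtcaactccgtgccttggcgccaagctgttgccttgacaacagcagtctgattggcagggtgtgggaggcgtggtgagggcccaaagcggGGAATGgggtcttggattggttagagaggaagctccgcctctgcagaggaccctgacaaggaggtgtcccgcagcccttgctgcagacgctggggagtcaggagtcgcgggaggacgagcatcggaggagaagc
*Igf2*, chr7:142661222-142661521, minus strand: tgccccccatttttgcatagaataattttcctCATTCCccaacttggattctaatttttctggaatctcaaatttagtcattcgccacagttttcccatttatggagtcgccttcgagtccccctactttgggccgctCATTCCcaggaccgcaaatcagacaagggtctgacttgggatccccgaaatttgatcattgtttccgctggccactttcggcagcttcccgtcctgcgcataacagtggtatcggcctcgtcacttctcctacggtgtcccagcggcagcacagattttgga
In *Peg3* the TEAD letters lie 84 bases and the PLAGL1 letters 201 bases before the start. In the *Igf2* window the TEAD letters lie 218 and 112 bases before it. The windows of the members had a median of 13 CpG dinucleotides and a GC content of 59.3%, against 7 and 52.7% over all windows. The richest was the window of *Grb10* at chr11:12037371-12037670, with 45 CpG dinucleotides and a GC content of 80.0%. A match is a description of the letters in these windows, and binding was not measured.

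A list of 60 other imprinted genes gives the context, and 59 of them are in the count table. Whether each of these genes is imprinted in this cell type was not measured. They were chosen with earlier results of these data known, as were the other lists. Of these, 35 were at A > 0, 11 had TPM with A not above 0, and the rest had no TPM, with reads in only 1 library (8 genes), in neither (4 genes) or in both (1 gene). Of the 35, 3 were lower and 3 were higher, 8.57% in each direction, with a median M of −0.03. With *Snurf* and *Snrpn* summed as 1 gene, for the reason given below, 3 of 34 were lower and 2 were higher. The lower genes were *Snurf* (M = −2.23), *Dio3* and the retrotransposon-derived gene *Peg10*, which had 103 TPM in siCtrl against 69.5 TPM in si*Vgll3* (M = −0.57). The higher genes were *Nnat*, a small membrane protein of the endoplasmic reticulum (2.49 and 5.09 TPM, M = 1.03), *Snrpn*, a splicing protein (M = 0.78), and *Asb4*, a ubiquitin ligase adaptor (2.19 and 3.44 TPM, M = 0.65). The interval of *Asb4*, 0.48 to 0.83, spans the limit, and with 1 TPM added its M was 0.48, which left 2 higher genes. *Snurf* and *Snrpn* are 2 reading frames of the same transcript, and how reads were divided between them is uncertain. *Snurf* had 1573 siCtrl reads and 311 si*Vgll3* reads, and *Snrpn* had 525 and 840. Their summed reads were 2098 and 1151, a log2 ratio of CPM of −0.70 (interval −0.81 to −0.60). The most abundant genes of the list were nearly level: *Gnas*, the stimulatory G protein subunit, had 1555 and 1573 TPM (M = 0.02), the tetraspanin *Cd81* 738 and 721 TPM (M = −0.03), and *Commd1*, a copper and NF-kB regulator, 122 and 110 TPM (M = −0.15) in siCtrl and si*Vgll3*.

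**Figure D5:**
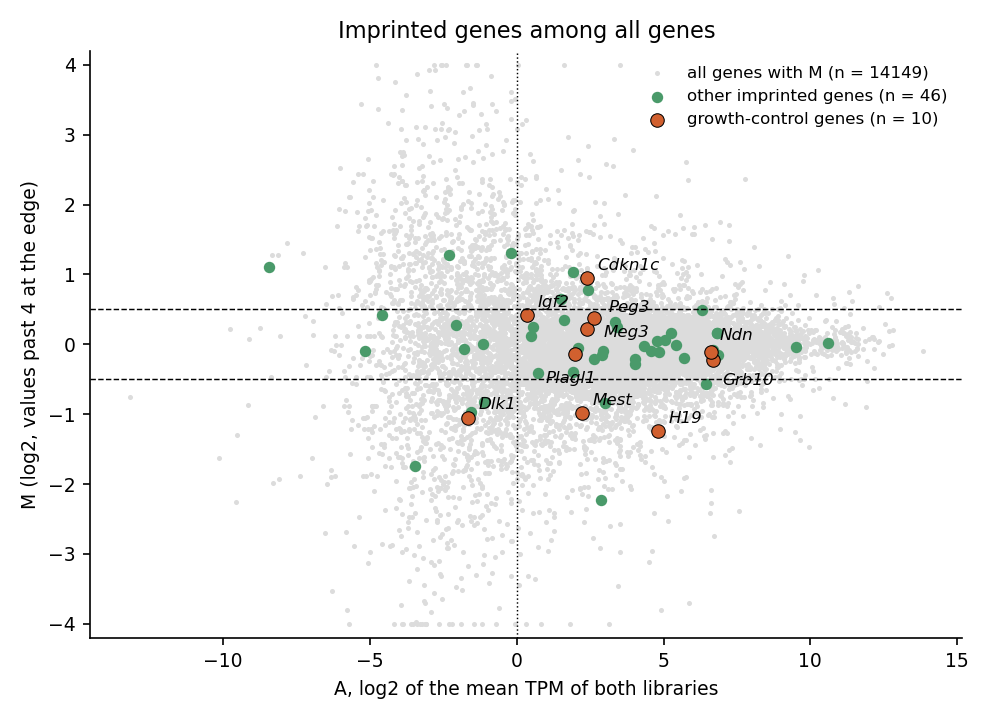
M against A (both log2) for all genes with both values in grey, 46 other imprinted genes in green and the 10 growth-control genes in orange, with dashed lines at M of −0.5 and 0.5 and a dotted line at A of 0. H19, Mest and Cdkn1c lie outside the dashed lines at A > 0, and most green points at A > 0 lie between them.

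The receptors, relatives and partners of the members made up a list of 26 genes, 23 of them at A > 0, with 3 lower, 1 higher and a median M of −0.08. These 3 of 23 and 1 of 23 (4.35%) are near the shares of all genes, 11.4% lower and 5.73% higher. *Igf1*, the relative of *Igf2* that acts after birth, was lower, at 45.3 TPM in siCtrl against 29.9 TPM in si*Vgll3* (M = −0.60, interval −0.63 to −0.57). It remained above *Igf2*, at 41.7 and 20.6 times its TPM. The IGF receptor *Igf1r* had 25.3 and 23.3 TPM (M = −0.12), and *Igf2r*, an imprinted gene whose product clears IGF2 from the cell surface, had 117 and 104 TPM (M = −0.17). *Notch1* (15.1 and 8.50 TPM, M = −0.83) and *Notch3* (14.1 and 7.97 TPM, M = −0.82), receptors of the pathway that DLK1 modulates, were lower. The gene that was higher was *Ccnd1*, cyclin D1, which drives the entry into the cell cycle, at 86.5 TPM in siCtrl against 170 TPM in si*Vgll3* (M = 0.98, interval 0.95 to 1.00). The kinase *Cdk4* that it binds had 607 and 627 TPM (M = 0.05). *Maged1*, a relative of *Ndn*, had 538 and 472 TPM (M = −0.19).

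A list of 21 imprint maintenance genes also held the *Tet* genes, whose products remove DNA methylation, and histone modifiers. Of the 21, 17 were at A > 0, with 2 lower, 1 higher and a median M of −0.05. These are 11.8% and 5.88%, again near the shares of all genes. The de novo DNA methyltransferase *Dnmt3a* had 9.15 TPM in siCtrl against 5.65 TPM in si*Vgll3* (M = −0.69), and the histone methyltransferase *Ehmt1* had 18.4 and 11.0 TPM (M = −0.74). *Zfp57*, the zinc finger protein that binds methylated control regions, was higher, at 6.49 and 10.3 TPM (M = 0.66, interval 0.53 to 0.79). By CPM, *Zfp57* had M = 0.53, close to the limit. Its gap of 0.13 between M by TPM and by counts compares with a median gap of −0.05 over all genes. Its partner *Trim28* had 191 and 188 TPM (M = −0.02), the maintenance factor *Uhrf1* 56.7 and 59.5 TPM (M = 0.07) and the histone methyltransferase *Ehmt2* 70.7 and 61.4 TPM (M = −0.20). Methylation itself was not measured in these libraries.

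The identity of the cells was checked on marker lists. All 12 fibroblast and myofibroblast markers were at A > 0, and they summed to 29037 TPM in siCtrl against 27989 TPM in si*Vgll3*. Of the 12, 5 were lower, namely *Postn* (M = −1.22), *Col1a1* (M = −0.90), *Col3a1* (M = −0.86), *Tcf21* (M = −0.58) and *Col1a2* (M = −0.53), and 3 were higher, namely *Thy1* (M = 0.72), *S100a4* (M = 0.53) and *Tagln* (M = 0.52). Leukocyte markers summed to 15.7 and 14.4 TPM, with *Ptprc*, *Adgre1*, *Itgam*, *Cd52* and *Tyrobp* at 0 reads in both libraries. Of the 5 that were detected, *Lyz2* was lower (10.9 and 3.13 TPM, M = −1.80), while *Cd53* (0.760 and 5.91 TPM, M = 2.96), *Cd14* (M = 0.62) and *Csf1r* (M = 0.50) were higher, and their median M was 0.50. Cardiomyocyte markers summed to 60.0 and 10.4 TPM, all of it *Tnnt2*, and 6 of the 9 had 0 reads in both. Endothelial markers summed to 32.8 and 30.4 TPM, with *Tek* lower (M = −0.54) and *Cdh5*, *Pecam1* and *Egfl7* at M of 0.50, 0.47 and 0.42, and the median over the 5 at A > 0 was 0.42. Pericyte and smooth muscle markers summed to 287 and 242 TPM, with *Pdgfrb* (M = −0.74) and *Notch3* lower and *Cnn1* higher (44.0 and 96.6 TPM, M = 1.13). Neural and glial markers summed to 859 and 1109 TPM, nearly all of it *Tubb3*. Epicardial markers summed to 73.9 and 55.7 TPM, and differed in both directions: *Upk3b* (31.6 and 9.89 TPM), *Lrrn4* (12.4 and 3.90 TPM) and *Wt1* (7.61 and 4.78 TPM) were lower, and *Krt19* (2.86 and 16.8 TPM) and *Msln* (1.58 and 5.93 TPM) were higher. The part of these cell types in the differences of *H19*, *Mest* and *Cdkn1c* was not tested.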

How the data were processed

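Poly-A RNA was sequenced as 1 library per condition (TruSeq Stranded mRNA LT libraries, Illumina NovaSeq). Per the labels, the authors ran FastQC and Trimmomatic on the reads, then HISAT2 against mm10, and StringTie on the known genes. Versions, annotation release and strand setting are not given in the sources used here. The authors deposited raw read counts per gene, with no normalization, and TPM per gene and library. All per-sample columns were used.

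M, A and Clopper-Pearson intervals were computed from these with Python 3.11.15, pandas 2.3.3 and scipy 1.17.1. The intervals and the floor of 3 reads cover counting error only. The interval was run on simulated counts with no spread between cultures, which is the model it assumes. That run checked the computation only and says nothing about cultures. With 1 library per condition no test was made, and edgeR 4.0.16 and DESeq2 1.42.0 (R 4.3.3) served for scaling only, with TMM factors of 0.997 and 1.003 and size factors of 1.05 and 0.949 for siCtrl and si*Vgll3*.

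Members were matched by symbol. The members and all lists were chosen with earlier results of these data known. Named genes are the members, genes overlapping them, *Vgll3*, and from each list those past the limits at A > 0 plus the 3 with the largest mean TPM. Genes outside this rule (marker genes, neighbours in a cluster, *Cdkn1b*, *Igf1r*, *Igf2r* and those in the closing section) were chosen after their values were seen. Coordinates and 3′ UTRs came from GENCODE vM21, microRNAs, promoters and overlaps from RefSeq GRCm38.p6.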

Additional observations from a re-analysis of the deposited data

How the results depend on the processing

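No paired analysis was possible because there is 1 library for either siRNA. No member changed the sign of its M under CPM, TMM scaling, DESeq2 size factors, 0.1 or 1 TPM added, or centring on the median of all genes (−0.05), which took 1341 lower and 674 higher genes of all 11754 to 1170 and 765. M ranged from −1.24 to −1.19 for *H19*, −0.99 to −0.80 for *Mest*, 0.78 to 0.99 for *Cdkn1c*, 0.19 to 0.47 for *Meg3*, 0.23 to 0.46 for *Igf2*, −0.12 to −0.06 for *Ndn* and −1.05 to −0.24 for *Dlk1*. With a limit of 1 on M, 1 member was lower and 0 were higher, 1 other imprinted gene was lower and 1 was higher, and 0 maintenance genes and 0 partners passed in either direction. With no filter on A, 6 of 46 other imprinted genes were lower and 6 higher, and 3 of 25 partners were higher. At A > 2, 1 of 28 other imprinted genes was higher, beside 393 of 9938 over all genes. Under CPM, TMM and DESeq2 scaling alike, 5 of 37 other imprinted genes and 2 of 24 partners were higher. There the limit on A was applied to the scaled counts, which changes the genes that pass it. Over all genes, 751 of 11806 were higher under CPM, 733 of 11807 under TMM and 727 of 11807 under DESeq2. The higher imprinted genes were 2 with 1 TPM added, with the whole counting interval past the limit, or, in a setting chosen after the data were seen, with *Snurf* and *Snrpn* summed. The number of members at their TPM rank was 5 of 10 in siCtrl and 4 of 10 in si*Vgll3* with reads per kb of annotated exons. Over all genes, no filter on A gave 2103 lower and 1428 higher of 14149, and a limit of 1 gave 384 and 207 of 11754. The abundant members have narrow counting intervals, but *Dlk1* and *Igf2*, with 174 and 599 reads over both libraries against a median of 7361, have wide intervals, and a spread between cultures could not be estimated.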

Other observations

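Some imprinted genes had reads in only 1 library. In si*Vgll3*, beside *Phlda2* and *Kcnq1* of the *Cdkn1c* cluster, *Usp29*, the neighbour of *Peg3*, had 17 reads, while siCtrl had 0. Against the floor of 3 reads that a count of 0 allows, it was 6.34-fold higher in CPM, with the counting error of its 17 reads left out. *Magel2* and *Calcr* had 4 reads in si*Vgll3* and 0 in siCtrl, and *Klf14* and *Rasgrf1* had 2 and 3 siCtrl reads and 0 si*Vgll3* reads. Over all genes, 284 had at least 10 reads in si*Vgll3* and 0 in siCtrl, and 223 the reverse.

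Several genes under the limit on A had a large M. *Zdbf2*, a paternally expressed gene, had 113 siCtrl reads and 32 si*Vgll3* reads (M = −1.74, interval −2.35 to −1.16), and *Mkrn3*, near *Ndn*, had 74 and 35 (M = −0.97, interval −1.59 to −0.37). *Cobl*, the neighbour of *Grb10*, had 184 and 417 reads (M = 1.30, interval 1.05 to 1.56), and *Ddc*, on the other side of it, had 77 and 40 (M = −0.83, interval −1.42 to −0.26). *Dlk2*, the relative of *Dlk1*, had 19 and 114 reads (M = 2.77, interval 2.06 to 3.55), opposite in sign to *Dlk1*. The methyltransferase *Dnmt3b* had 279 and 88 reads (M = −1.53, interval −1.89 to −1.17).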
